A study of Mus musculus with 18 samples.

Results

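Apolipoproteins are the protein components of lipoprotein particles, and 10 of their genes that are known for their expression in liver were examined here, Apoa1, Apoa2, Apoa4, Apoa5, Apob, Apoc1, Apoc2, Apoc3, Apoe and Apoh. Open chromatin sites were obtained by merging the peak lists of 9 mouse strains, and a site was kept when it overlapped the body of any of these genes or lay within 20 kb of either end of it (GENCODE M1 on mm9). This gave 66 sites of 51957 in all. The genes fall into 5 loci. The Apoa1-Apoa5 cluster on chromosome 9, which holds Apoa1, Apoc3, Apoa4 and Apoa5, had 23 sites. The Apoe-Apoc cluster on chromosome 7, which holds Apoc2, Apoc1 and Apoe, had 20. Apoa2 on chromosome 1 had 8 sites, Apob on chromosome 12 had 4 and Apoh on chromosome 11 had 11.

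The data are FAIRE-seq profiles of whole liver from male mice of 7 inbred strains (C57BL/6J, C3H/HeJ, BALB/cJ, DBA/2J, AKR/J, A/J and CBA/J) and of BXH2/TyJ and BXH19/TyJ, 2 recombinant inbred strains that descend from C57BL/6J and C3H/HeJ. FAIRE-seq sequences the DNA that nucleosomes leave free in formaldehyde-fixed tissue, so that accessible regions appear as peaks. Mice of all strains ate a diet high in fat and sucrose (HF/HS) for 8 weeks from 8 weeks of age, with no group on another diet among the samples used here, and each strain was represented by 2 mice (18 samples). The authors combined both mice of a strain into 1 list of reproducible peaks, so that no value per strain has a replicate error and no difference between strains could be tested.

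Each list gives a signal value per peak, the score of the peak caller, on a scale that differs between lists (list medians 0.118 to 0.640). Signal is therefore given as a percentile within the list of a strain, where 100 is the peak with the highest signal. A site is called in a strain when a peak of that strain overlaps it by at least 1 bp, and the absence of a peak does not mean closed chromatin, since weak openings can miss the threshold. A weaker opening in every cell and an opening in fewer cells cannot be told apart in whole liver. The lists held 26769 (DBA/2J) to 30613 (CBA/J) peaks with median widths of 376 bp (DBA/2J) to 542 bp (BALB/cJ). The tissue was checked at 8 hepatocyte marker genes, of which Ahsg had a site within 1 kb of a start in 9 strains, Ttr, Serpina1a and Cyp2e1 in 8, Tat in 4, Alb in 2 and Fgb and Cps1 in 1 each. Of 8 marker genes of other cell types, 6 had none, so that the marker lists overlap in their number of strains and mark the tissue only in part. The exceptions were Gfap (2 strains) and Ins2 (9 strains), whose annotated record has 8 starts between positions 149864561 and 149885415 of chromosome 7.

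As background, apolipoprotein A1 is the main protein of high-density lipoprotein (HDL), and apolipoprotein A2 is also carried on HDL. Apolipoprotein B is the structural protein of very-low-density and low-density lipoprotein, and apolipoprotein E is the ligand through which remnant particles are taken up by receptors of the liver. Apolipoproteins C2 and A5 promote the breakdown of triglyceride by lipoprotein lipase, whereas C3 and C1 restrain it or the uptake of remnants. Apolipoprotein A4 is known mainly for its role in intestinal fat absorption, and apolipoprotein H, also called beta-2-glycoprotein I, binds phospholipids in plasma. Hepatocytes secrete most of these proteins, and liver-enriched factors such as HNF4, HNF1, C/EBP and FOXA are known to act at their genes.

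Apolipoprotein sites were called in all 9 strains more often than sites elsewhere. A peak was present in every strain at 30 of the 66 sites (45.5%, exact Clopper-Pearson 95% confidence interval 33.1 to 58.2%), against 26.6% of all sites. When a peak had to cover 50% of the merged site, the shares were closer, at 16.7% and 13.2%. Only 1 strain had a peak at 10 of the 66 (15.2%, interval 7.51 to 26.1%), against 26.5% of all sites. The remaining 26 were called in 2 to 8 strains. Intervals cover counting error only, and neighbouring sites are not independent.

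The clusters held most of the sites with a peak in every strain. These were 13 of 23 sites in the Apoa1-Apoa5 cluster (56.5%) and 11 of 20 in the Apoe-Apoc cluster (55.0%), against 3 of 8 at Apoa2 (37.5%), 1 of 4 at Apob (25.0%) and 2 of 11 at Apoh (18.2%). Some lay at neighbouring genes. The 3 at Apoa2 were promoter sites of Nr1i3 and Tomm40l and a site within Fcer1g, and 1 of the 2 at Apoh was the Ccdc46 promoter. Of the 66 sites, 20 were nearest to a start of a gene not examined here. Of the 46 nearest to a start of an examined gene, 18 were called in all 9 strains (39.1%). Of the 34 sites with a start of any protein-coding gene within 1 kb, 19 were called in all 9 strains (55.9%, against 50.3% of 17291 such sites in the genome). Of the 32 sites farther away, 11 were (34.4%, against 14.8% of 34666 such sites). The share called in all 9 strains rose with the width of the merged site, which in turn grows with the number of overlapping peaks. It was 2 of 26 for sites under 500 bp (4.90% of all sites of that width), 8 of 18 from 500 bp to under 1000 bp (34.6%) and 20 of 22 at 1000 bp or more (72.6%). Apolipoprotein sites were wider than the rest, with a median of 618 bp against 498 bp.

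**Figure D1:**
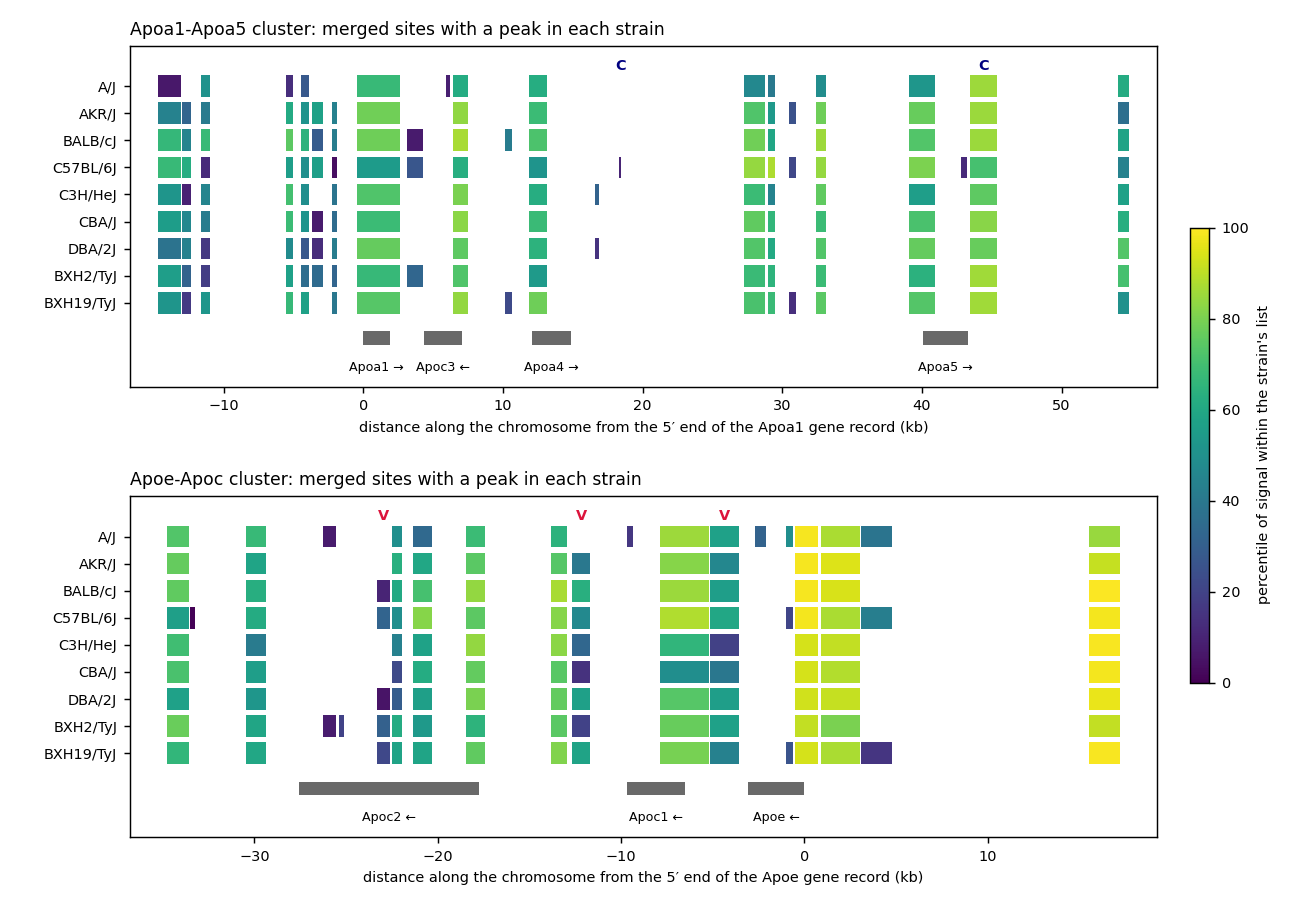
Maps of the Apoa1-Apoa5 cluster (top) and the Apoe-Apoc cluster (bottom), with the distance in kb from the 5′ end of the Apoa1 or Apoe gene record on the x axis and a row for each strain. A coloured block is a merged site with a peak in that strain, the colour is the percentile of its signal, grey bars are gene records with their direction, and V and C mark sites of the authors' variable and common lists: the 3 variable sites lie in the lower map and the 2 common sites in the upper.

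At their promoters, 9 of the 10 genes had a site called in all 9 strains, where a promoter site is a site within 1 kb of an annotated transcript start. The same was true of 40.9% of 22238 protein-coding genes. Apoa2 was the exception, with 8 strains. When a peak had to cover 50% of a site, the number of genes fell to 3 of 10. The 40.9% applies to the main setting only. No share over all genes is given here for any other setting, so that 3 of 10 has no such value beside it. For Apoh the count rests on an outermost start that it shares with a neighbour, as described below. The RefSeq promoter table held 12 promoters for 8 of the genes (250 bases before to 50 after a start), each of which matched mm9 in 1 place. Of these 8 genes, 7 had a RefSeq start within 1 kb of a site called in all 9 strains, and the exception was Apoh. Apoa2 counts here only through a start upstream, inside a site over Tomm40l, and its start in the gene lies in the site called in 8 strains. Promoter sequences below come from RefSeq (GRCm38.p6) and are placed on mm9 by exact match, and sequences of variable and common sites are taken from mm9 itself. All show the reference strain C57BL/6J rather than the sequence of the other strains.

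Of the genes for the main HDL proteins, Apoa1 had an open promoter in every strain. The site spans 3033 bp (chr9:46036246-46039278) and covers the whole gene record. Its percentiles were 67.4 in A/J, 78.3 in AKR/J, 78.0 in BALB/cJ, 54.4 in C57BL/6J, 72.5 in C3H/HeJ, 68.0 in CBA/J, 76.4 in DBA/2J, 67.0 in BXH2/TyJ and 73.6 in BXH19/TyJ. C57BL/6J was thus the lowest and AKR/J the highest. The summit, the point of highest signal in a peak, lay close to the RefSeq start in all strains, between positions -92 and -5 with a median of -11, where negative positions are upstream.

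At Apoa2 the promoter was called in every strain but A/J. Its sites were a 624 bp site over the start (chr1:173154948-173155571) and a 455 bp site upstream (chr1:173153916-173154370, 815 bp from the nearest start). The promoter sequence is shown because it is the lowest of the promoter sites that span a RefSeq start in at least 8 strains (median percentile 42.2). A match to the FOXA motif TGTTTAC and one to the TATA box motif TATAAA are in capitals.
Apoa2 promoter, chr1:173154935-173155234, plus strand: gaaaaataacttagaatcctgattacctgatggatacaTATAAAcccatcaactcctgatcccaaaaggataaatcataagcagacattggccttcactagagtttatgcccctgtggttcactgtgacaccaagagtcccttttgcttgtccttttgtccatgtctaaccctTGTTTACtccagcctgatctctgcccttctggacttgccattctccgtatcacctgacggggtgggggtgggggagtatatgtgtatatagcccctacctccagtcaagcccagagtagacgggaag
The site over this start had percentiles of 53.1 in AKR/J, 56.5 in BALB/cJ, 50 in C57BL/6J, 34.8 in C3H/HeJ, 42.5 in CBA/J, 41.9 in DBA/2J, 28.1 in BXH2/TyJ and 40.3 in BXH19/TyJ. Summits lay between positions -63 and -13. The upstream site ranked higher, from 50.3 in C3H/HeJ to 87.6 in C57BL/6J, with a median of 72.0. RefSeq lists another Apoa2 start farther upstream, and that start lies in a 3723 bp site over Tomm40l, a gene for a mitochondrial import protein, which was called in all 9 strains. There A/J was lowest as well, at 58.6 against 87.2 to 97.5 in the other strains.

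The Apoa4 promoter site (chr9:46048534-46049815) was called in all strains with percentiles of 62.1 in A/J, 68.0 in AKR/J, 71.6 in BALB/cJ, 51.9 in C57BL/6J, 62.2 in C3H/HeJ, 67.6 in CBA/J, 64.2 in DBA/2J, 54.0 in BXH2/TyJ and 77.9 in BXH19/TyJ. As at Apoa1, C57BL/6J was the lowest strain, and the highest here was BXH19/TyJ. Its summits were all upstream of the RefSeq start, at positions -169 to -102. The GENCODE start lies farther upstream than the RefSeq start, at chr9:46048779, and the median summit was next to it, at 46048778.

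Apoa5 and Apoc3, which act on triglyceride in opposite directions, both had promoter sites in every strain. At Apoa5 (chr9:46075722-46077629) percentiles were 52.4 in A/J, 76.6 in AKR/J, 72.9 in BALB/cJ, 80.3 in C57BL/6J, 55.6 in C3H/HeJ, 71.1 in CBA/J, 76.2 in DBA/2J, 64.0 in BXH2/TyJ and 73.2 in BXH19/TyJ. At Apoc3 (chr9:46043077-46044149) they were 61.6 in A/J, 83.5 in AKR/J, 87.0 in BALB/cJ, 62.5 in C57BL/6J, 79.7 in C3H/HeJ, 82.6 in CBA/J, 75.0 in DBA/2J, 72.6 in BXH2/TyJ and 83.8 in BXH19/TyJ. A/J was the lowest strain at both. C57BL/6J was the highest strain at Apoa5 but second lowest at Apoc3, so that promoters of the same cluster did not follow the same order of strains. A second site near Apoc3, 496 bp from a start, was called in A/J alone at percentile 8.95.

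At Apob the promoter was called in all strains but ranked low. The sequence around its RefSeq start is shown because this site had the lowest median of the promoter sites over a RefSeq start that were called in all strains, and it carries a C/EBP match (TTGCNNAA, here on the other strand) and a TATA box match, in capitals.
Apob promoter, chr12:7984233-7984532, plus strand: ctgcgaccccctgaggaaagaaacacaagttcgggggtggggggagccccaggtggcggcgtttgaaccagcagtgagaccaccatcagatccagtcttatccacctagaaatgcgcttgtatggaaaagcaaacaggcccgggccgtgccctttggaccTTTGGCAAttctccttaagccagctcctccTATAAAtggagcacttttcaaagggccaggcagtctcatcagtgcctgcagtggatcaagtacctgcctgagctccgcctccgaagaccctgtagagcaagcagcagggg
The site (chr12:7983854-7984945) had percentiles of 46.3 in A/J, 52.5 in AKR/J, 59.8 in BALB/cJ, 32.6 in C57BL/6J, 32.9 in C3H/HeJ, 51.5 in CBA/J, 27.1 in DBA/2J, 56.8 in BXH2/TyJ and 49.7 in BXH19/TyJ, with a median of 49.7. DBA/2J was lowest, with C57BL/6J and C3H/HeJ close together above it. Both recombinant strains lay above both of their parental strains, and without replicates a difference of this size cannot be set against any error. Summits lay between positions -174 and -81.

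The other Apob sites varied more. A site inside the gene (chr12:7985278-7985684, 693 bp from the nearest start) was missing in A/J and C57BL/6J and otherwise ranged from percentile 2.18 in DBA/2J to 57.1 in BALB/cJ. Downstream of the gene, chr12:8024935-8025304 was called only in C57BL/6J (15.8) and DBA/2J (55.5), and chr12:8027803-8028135 was called in every strain but A/J (30.4 to 63.0). DBA/2J therefore had the lowest percentile of the 9 strains at the promoter and the highest at both downstream sites. No site was found between the intragenic site and the downstream sites, although the gene record spans positions 7984454 to 8023641.

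Apoc2, the activator of lipoprotein lipase, has 5 annotated starts and 6 promoter sites, of which 3 were called in all strains. The site at its RefSeq start (chr7:20263141-20264205) had percentiles of 33.6 in A/J, 59.6 in AKR/J, 70.7 in BALB/cJ, 82.0 in C57BL/6J, 57.7 in C3H/HeJ, 61.7 in CBA/J, 56.0 in DBA/2J, 53.8 in BXH2/TyJ and 58.4 in BXH19/TyJ, with A/J lowest and C57BL/6J highest. The site at the outermost start (chr7:20266052-20267073) is shared with Apoc4, the gene of a minor apolipoprotein, and ranged from 64.7 in BXH2/TyJ to 83.6 in BALB/cJ and C3H/HeJ. The third, chr7:20262006-20262542, ranged from 22.5 in CBA/J to 63.0 in AKR/J. The other 3 sites were called in 1, 2 and 5 strains, and the last of these is in the variable list.

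At Apoc1 a 2646 bp site (chr7:20276646-20279291) was called everywhere, with percentiles of 85.4 in A/J, 82.0 in AKR/J, 85.0 in BALB/cJ, 88.1 in C57BL/6J, 65.4 in C3H/HeJ, 49.2 in CBA/J, 73.7 in DBA/2J, 76.7 in BXH2/TyJ and 79.6 in BXH19/TyJ. CBA/J and C3H/HeJ were the lowest strains, and both recombinant strains fell between their parental strains.

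Apoe had the highest and steadiest promoter. Its sequence is shown for that reason. None of the motifs searched occurs in it, so it holds no capitals.
Apoe promoter, chr7:20284488-20284787, minus strand: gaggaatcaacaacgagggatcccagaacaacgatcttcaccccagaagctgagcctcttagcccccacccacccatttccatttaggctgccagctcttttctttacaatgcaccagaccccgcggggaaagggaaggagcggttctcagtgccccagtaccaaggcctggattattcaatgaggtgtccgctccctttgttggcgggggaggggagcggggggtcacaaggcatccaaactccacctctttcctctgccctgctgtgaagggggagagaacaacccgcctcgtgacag
The site (chr7:20284024-20285278) had percentiles of 98.5 in A/J, 98.7 in AKR/J, 98.7 in BALB/cJ, 98.1 in C57BL/6J, 93.6 in C3H/HeJ, 93.7 in CBA/J, 92.7 in DBA/2J, 90.9 in BXH2/TyJ and 93.5 in BXH19/TyJ. The strains thus fell within 7.86 percentile points, and the SD over strains of 3.10 was the lowest of the 30 apolipoprotein sites with a peak in all strains. Percentiles near the top of a list have little room to vary. Summits lay just inside the gene, at positions 22 to 45. The next site upstream (chr7:20285406-20287542), which Apoe shares with Tomm40, was also called in all strains, at 80.0 to 94.9.

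Another Apoe site (chr7:20283514-20283912), over an alternative RefSeq start, was called in A/J (49.2), C57BL/6J (20.7) and BXH19/TyJ (25.8) only. The same 3 strains, and no others, had a peak at chr7:20287617-20289307 near Tomm40, with percentiles of 38.6, 42.4 and 15.3. These sites lie on either side of the Apoe promoter. This pair was noticed after its values were seen.

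At Apoh the result depended on which start was used. The site called in all 9 strains (chr11:108204070-108205850) lies at the outermost annotated start, which is within 1 kb of the start of Prkca, a protein kinase gene. Its percentiles were 90.1 in A/J, 72.2 in AKR/J, 76.5 in BALB/cJ, 38.4 in C57BL/6J, 76.4 in C3H/HeJ, 87.5 in CBA/J, 53.5 in DBA/2J, 94.4 in BXH2/TyJ and 95.2 in BXH19/TyJ. The start that RefSeq gives lies far downstream, in a 447 bp site (chr11:108256349-108256795) called only in AKR/J (36.4), BALB/cJ (26.2), C57BL/6J (37.2) and BXH19/TyJ (27.3). Its sequence is shown because its calls differ between strains, and the capitals mark a FOXA match.
Apoh promoter, chr11:108256361-108256660, plus strand: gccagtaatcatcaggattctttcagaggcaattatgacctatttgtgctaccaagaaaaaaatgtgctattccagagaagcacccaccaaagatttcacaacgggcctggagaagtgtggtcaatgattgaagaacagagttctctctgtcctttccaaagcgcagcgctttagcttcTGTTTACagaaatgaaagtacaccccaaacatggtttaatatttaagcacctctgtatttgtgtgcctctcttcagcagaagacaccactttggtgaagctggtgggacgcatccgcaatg
The median GC content of the 11 Apoh sites was 48.8%, the lowest of the 5 loci. The 5 sites within introns of the GENCODE record of Apoh all lay upstream of the RefSeq start. Of these, AKR/J had a peak at 5, CBA/J at 3, BXH2/TyJ, C3H/HeJ, C57BL/6J and BALB/cJ at 2, BXH19/TyJ at 1 and A/J and DBA/2J at 0.

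**Figure D2:**
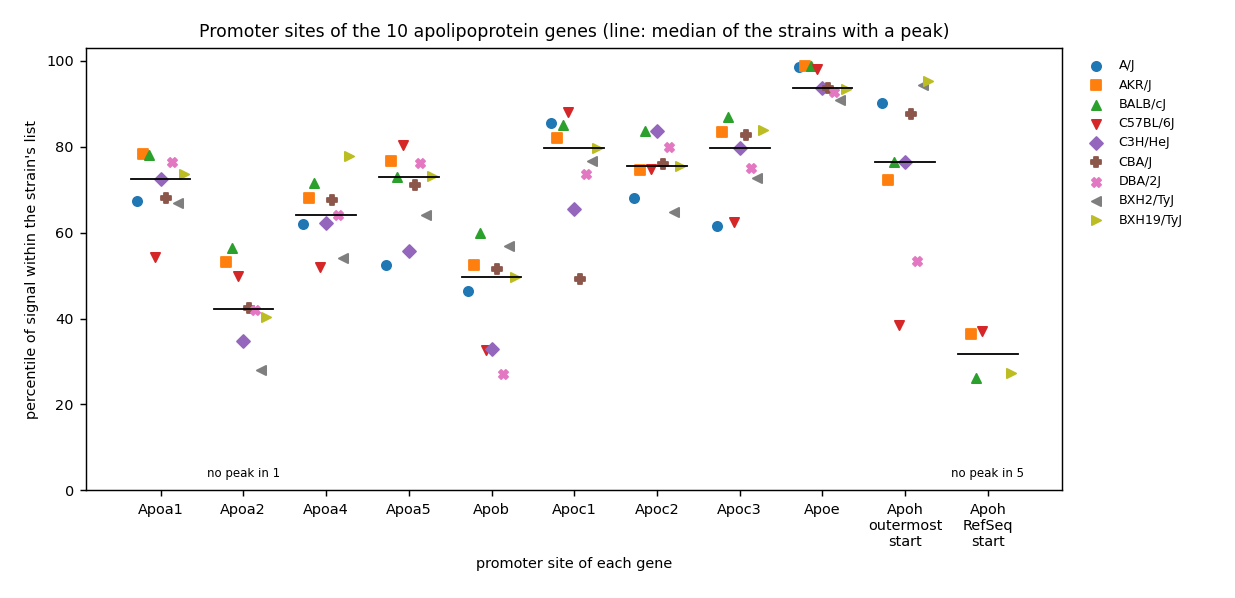
Percentile of signal within the list of each strain (y axis) at a promoter site of each gene (x axis); each symbol is a strain and the black line is the median of the strains with a peak. For genes with several promoter sites the site over a start with the most strains and highest median is drawn, and Apoh is drawn at both starts; Apoe lies at 90.9 to 98.7 and the Apoh RefSeq start has a peak in 4 strains only.

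Outside the promoters, the Apoa1-Apoa5 cluster held distal sites with a peak in every strain, with a wider spread than the promoters of its genes. The SD of the percentile over strains was 7.52 to 9.73 at the promoter sites of Apoa1, Apoc3, Apoa4 and Apoa5 called in all strains. Over the genome, sites called in all 9 strains also had a wider spread away from promoters. Their median SD was 13.1 farther than 1 kb from any protein-coding start and 7.11 within 1 kb. Between Apoa4 and Apoa5, 3 intergenic sites were called in all strains: chr9:46063957-46065428 (46.7 to 84.2), chr9:46065641-46066125 (40.3 to 87.6) and chr9:46069051-46069798 (48.8 to 85.4). Their SDs were 10.4, 13.8 and 10.8. A/J was the lowest strain at each of them. C57BL/6J was the highest at the first and the second, and BALB/cJ at the third. Upstream of Apoa1, 5 sites lie within Sik3, a kinase gene, and 4 of them were called in all strains, with SDs of 12.9 to 19. The other distal sites of the cluster lacked a peak in at least 1 strain. The flanking promoters of Zfp259 and Bud13 were called in all strains too.

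The authors' list of the most variable sites over the inbred strains held 3 of the 66 sites (4.55%, interval 0.947 to 12.7%), against 4.87% of all sites, and all 3 lay in the Apoe-Apoc cluster. Their central 300 bases are shown because read counts differed most between strains there by the authors' test, and none holds a motif match.
Variable site within Apoc2, chr7:20261415-20261714, plus strand: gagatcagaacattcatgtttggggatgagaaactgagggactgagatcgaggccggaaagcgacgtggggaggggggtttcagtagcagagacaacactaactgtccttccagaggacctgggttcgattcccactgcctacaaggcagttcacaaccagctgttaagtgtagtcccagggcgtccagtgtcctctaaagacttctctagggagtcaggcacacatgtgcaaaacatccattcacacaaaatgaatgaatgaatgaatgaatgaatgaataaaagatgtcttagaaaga
Variable site between Apoc4 and Apoc1, chr7:20272197-20272496, plus strand: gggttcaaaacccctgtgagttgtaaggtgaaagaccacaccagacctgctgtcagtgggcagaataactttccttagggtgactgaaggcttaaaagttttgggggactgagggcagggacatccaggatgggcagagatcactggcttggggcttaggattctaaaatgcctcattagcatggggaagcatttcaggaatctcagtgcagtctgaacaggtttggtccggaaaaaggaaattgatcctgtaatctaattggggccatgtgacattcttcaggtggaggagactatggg
Variable site between Apoc1 and Apoe, chr7:20279979-20280278, plus strand: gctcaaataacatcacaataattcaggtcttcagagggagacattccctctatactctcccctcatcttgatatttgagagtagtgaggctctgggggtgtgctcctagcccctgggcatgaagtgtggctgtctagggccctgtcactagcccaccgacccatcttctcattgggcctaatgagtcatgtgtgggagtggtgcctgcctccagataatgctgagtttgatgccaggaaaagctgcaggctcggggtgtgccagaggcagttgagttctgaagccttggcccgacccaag
The first (chr7:20261198-20261932) had a peak in BALB/cJ (10.1), C57BL/6J (31.7), DBA/2J (5.30), BXH2/TyJ (30.8) and BXH19/TyJ (21.8). It was therefore called in C57BL/6J and in both strains derived from it, but not in C3H/HeJ. The second (chr7:20271851-20272843) was missing in A/J alone, and had percentiles of 40.1 in AKR/J, 62.9 in BALB/cJ, 47.1 in C57BL/6J, 33.1 in C3H/HeJ, 14.3 in CBA/J, 56.3 in DBA/2J, 19.8 in BXH2/TyJ and 57.9 in BXH19/TyJ. The third (chr7:20279339-20280919) was called in all strains, at 56.9 in A/J, 46.1 in AKR/J, 55.6 in BALB/cJ, 59.5 in C57BL/6J, 19.2 in C3H/HeJ, 39.8 in CBA/J, 55.5 in DBA/2J, 56.8 in BXH2/TyJ and 43.5 in BXH19/TyJ. C3H/HeJ stood lowest there, with CBA/J next.

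The list of the most common sites held 2 of the 66 (3.03%, interval 0.369 to 10.5%), against 4.89% of all sites, and both lay in the Apoa1-Apoa5 cluster. The Zfp259 promoter (chr9:46080081-46082034), next to Apoa5, was called in all strains at 70.6 to 85.8. The other was a short intergenic site of 174 bp, called only in C57BL/6J at percentile 10. It is shown whole because it is in the common list although only 1 strain had a peak there. The list rests on read counts at the site and the call on a peak.
Common site between Apoa4 and Apoa5, chr9:46054969-46055142, plus strand: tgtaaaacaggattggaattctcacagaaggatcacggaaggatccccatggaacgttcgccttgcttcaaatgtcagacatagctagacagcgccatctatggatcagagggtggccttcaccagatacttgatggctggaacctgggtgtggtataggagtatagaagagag

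**Figure D3:**
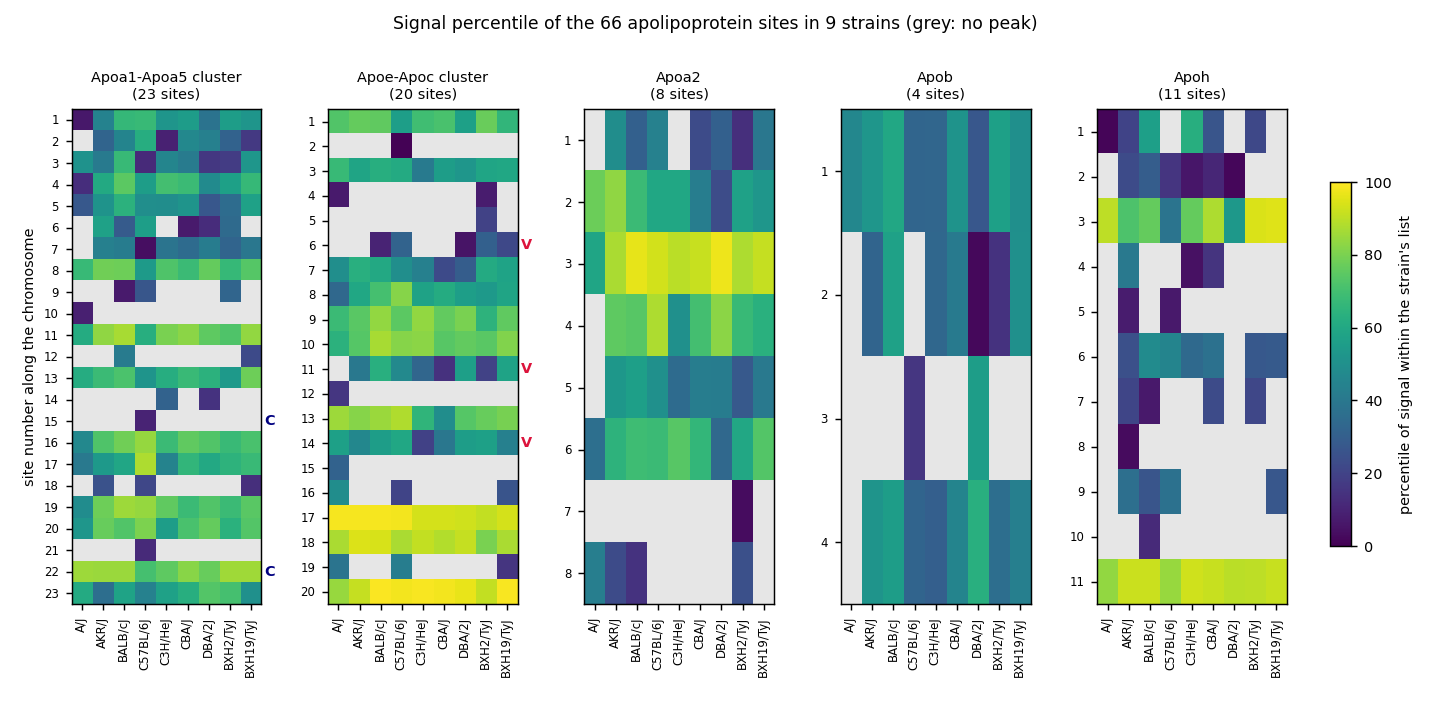
Heatmap of the 66 sites, with the strains on the x axis, the sites of each locus in chromosomal order on the y axis and the percentile of signal as colour; grey is a site without a peak in that strain, and V and C mark the variable and common lists. Rows filled across all 9 strains are the 30 sites called everywhere, and the grey cells in the A/J column include the 6 sites missing in that strain alone.

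Taking each cluster as a unit, the lists of the strains differed in the sites called and the sequence covered by peaks, without a test. In the Apoa1-Apoa5 cluster the sites called ranged from 14 in A/J to 20 in C57BL/6J (16.9 ± 1.86, SD, n = 7 inbred strains). The sequence covered by peaks ranged from 9419 bp in A/J to 17145 bp in BALB/cJ, and the mean percentile over the 23 sites, with no peak taken as 0, from 27.5 in A/J to 48.4 in BALB/cJ. Over the genome, peaks covered 19.2 Mb in A/J and 20.5 Mb in BALB/cJ, the highest, against 12.4 Mb in DBA/2J, the lowest. In the Apoe-Apoc cluster A/J was joint highest instead, with 16 sites called as in C57BL/6J, against 12 in AKR/J, C3H/HeJ and CBA/J (13.4 ± 1.81, SD, n = 7 inbred strains). Mean percentiles there ran from 37.3 in CBA/J to 48.9 in C57BL/6J, and A/J had 45.5. At Apoh, AKR/J had 10 of the 11 sites and A/J and DBA/2J had 3 each.

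Over all 66 sites, A/J had the fewest peaks. Sites were called at 38 in A/J (57.6%), 49 in AKR/J (74.2%), 49 in BALB/cJ (74.2%), 51 in C57BL/6J (77.3%), 42 in C3H/HeJ (63.6%), 44 in CBA/J (66.7%), 43 in DBA/2J (65.2%), 48 in BXH2/TyJ (72.7%) and 45 in BXH19/TyJ (68.2%). Of all sites, A/J had 54.5%, AKR/J 54.3%, BALB/cJ 56.4%, C57BL/6J 54.9%, C3H/HeJ 56.1%, CBA/J 56.9%, DBA/2J 46.7%, BXH2/TyJ 54.8% and BXH19/TyJ 55.4%. Every strain thus had a higher share at apolipoprotein sites than over the genome, and A/J had the smallest excess. The number of apolipoprotein sites called was not shown to move with the length of the list over the 7 inbred strains (Pearson's r = 0.24, exact permutation p = 0.598; Spearman's rho = 0.41, exact permutation p = 0.357), nor with the median peak width (r = -0.37, exact permutation p = 0.434; rho = -0.29, exact permutation p = 0.537). These 2 relations, tested two-sided, had the same Benjamini-Hochberg adjusted p of 0.598 for r by exact permutation. Without the 2 strains farthest from the median of the x axis, r was 0.36 and -0.43.

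**Figure D4:**
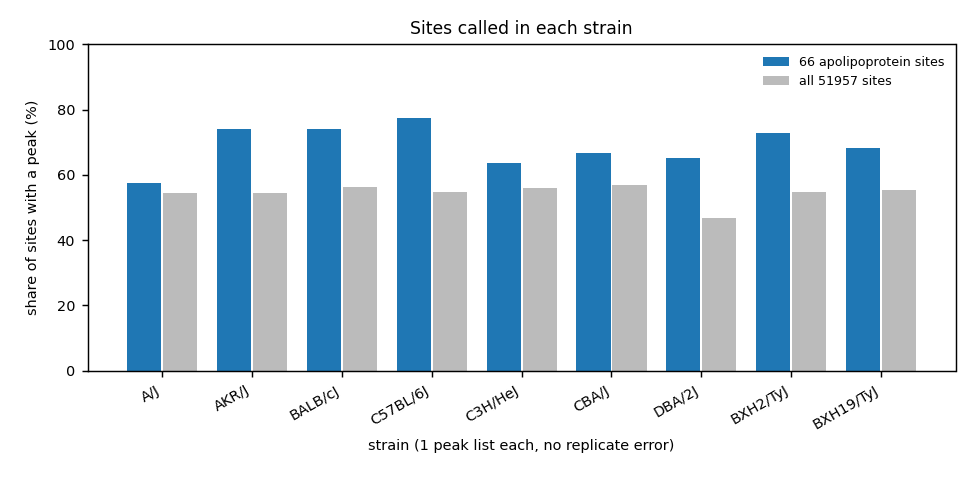
Share of sites with a peak in each strain (y axis, %), for the 66 apolipoprotein sites (blue) and all 51957 sites (grey). The blue bar is above the grey bar in each of the 9 strains, by least in A/J (57.6% against 54.5%).

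All 6 apolipoprotein sites called in exactly 8 strains were missing in A/J, and A/J was also the missing strain at 60.3% of the 4546 such sites in the genome. They were both Apoa2 promoter sites, the Apob site farthest downstream, the second variable site of the Apoe-Apoc cluster and 2 sites upstream of Apoa1. At the promoters of the hepatocyte markers Ttr, Serpina1a and Cyp2e1, A/J was the missing strain too. Where all strains had a peak, A/J was the lowest at 12 of the 30 apolipoprotein sites, 7 of them in the Apoa1-Apoa5 cluster, while it was lowest at 30.1% of all sites called in 9 strains. In the other direction, 3 of the 66 sites were called in A/J alone, near a start of Apoc3 and in exons of Apoc1 and Apoe. Over the genome the share was larger, at 5920 of 51957 sites. Of the sites called in only 1 strain, A/J was that strain at 3 of 10 here and at 5920 of 13778 over the genome. GC content moved with these calls. The 6 sites missing in A/J had a median GC content of 49.9%, the 30 sites called everywhere 53.9% and the 3 sites called in A/J alone 61.8%, and over all sites the same classes had medians of 49.5%, 57.3% and 61.4%. The part of GC content in these calls was not tested. Nor was that of sequencing depth, which by the study's read numbers was lowest in A/J among the inbred strains. Without the A/J list, the share called in every remaining strain was 57.1% of apolipoprotein sites and 35.6% of all sites. Each of the 10 genes then had a promoter site in all of the other strains, with no share over all genes given here.

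The recombinant strains can be read against their parental strains. C57BL/6J had a peak and C3H/HeJ had none at 13 of the 66 sites (19.7%, interval 10.9 to 31.3%), against 11.4% of all sites, and the reverse held at 4 (6.06%, interval 1.68 to 14.8%), against 12.6%. Of the 13 sites, 5 were in the Apoa1-Apoa5 cluster, 4 in the Apoe-Apoc cluster, 2 at Apoh and 1 each at Apoa2 and Apob. Peaks were present at 4 of the 13 in BXH2/TyJ (30.8%, against 32.4% of 5920 such sites in the genome) and at 6 in BXH19/TyJ (46.2%, against 33.6%). At the 4 sites with a peak in C3H/HeJ only, BXH2/TyJ had 2 (44.4% over the genome) and BXH19/TyJ had 1 (47.3%). At the 11 sites with a peak in neither parental strain, BXH2/TyJ had 5 (19.6% over the genome) and BXH19/TyJ had 1 (14.8%). Of the 13 C57BL/6J sites without a C3H/HeJ peak, 4 lay in the Apoe-Apoc cluster, where BXH19/TyJ had 3 and BXH2/TyJ had 1. Of the 5 in the Apoa1-Apoa5 cluster, BXH19/TyJ had 1 and BXH2/TyJ had 2. Where both parental strains had a peak, each recombinant strain had it at 37 of 38 sites (97.4%), and over the genome BXH2/TyJ had it at 89.9% and BXH19/TyJ at 93.9% of 22612 such sites. Sites in a cluster are inherited together and are not independent, and the genotypes of the recombinant strains were not used here.

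The spread between strains was close to that of other sites when all sites were pooled. The SD of the percentile over the 9 strains, with no peak taken as 0, had a median of 11.9 over the 66 sites and 11.1 over all sites. For sites called in all 9 strains the medians were 11.2 and 9.53. Among these, sites within 1 kb of a protein-coding start had a wider spread than such sites in the genome (9.31 against 7.11). Sites farther away did not (12.9 against 13.1). Among sites called in 2 to 7 strains, the largest SD was 24.3, at chr11:108192117-108192525 upstream of Apoh, within Prkca. It had percentiles of 1.54 in A/J, 20.2 in AKR/J, 56.5 in BALB/cJ, 62.6 in C3H/HeJ, 26.2 in CBA/J and 21.6 in BXH2/TyJ and no peak in C57BL/6J, DBA/2J and BXH19/TyJ. Next came a site 2850 bp upstream of Apoa1 (chr9:46032972-46033813, SD 23.4), at 57.2 in AKR/J, 28.8 in BALB/cJ, 56.2 in C57BL/6J, 7.06 in CBA/J, 12.7 in DBA/2J and 34.6 in BXH2/TyJ. The site inside Apob (SD 22.2), the Apob site called in 2 strains (18.6) and a site near Nr1i3, the gene of a xenobiotic receptor, at the Apoa2 locus (18.0) completed the 5. The Nr1i3 site was missing in A/J and C3H/HeJ and ranged from 13.4 in BXH2/TyJ to 49.0 in AKR/J elsewhere.

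Of 24 further genes of lipoprotein assembly and turnover, 14 had a promoter site in all 9 strains, 6 in 1 to 8 strains and 4 in none, beside 40.9% of protein-coding genes with a site in all 9. The 4 without a site were Apod and Saa1, Saa2 and Saa4, the serum amyloid A genes. Saa1 and Saa2 are near-identical copies, so that reads with a single location are uncertain there. Apobr, a receptor for apolipoprotein B, had 3 promoter sites. The one given here, with the most strains, was called in C3H/HeJ (6.13) and BXH2/TyJ (6.81) only. Pltp, the phospholipid transfer protein, had a site in A/J (45.0) and BXH19/TyJ (7.86), and Abcg1, a cholesterol exporter, in A/J (59.4) and BXH2/TyJ (62.8). Apom, an HDL apolipoprotein, had it in A/J (14.5), C3H/HeJ (10.7), BXH2/TyJ (29.1) and BXH19/TyJ (31.4). AKR/J, BALB/cJ, C57BL/6J, CBA/J and DBA/2J had no peak at the Apobr, Pltp, Abcg1 and Apom sites given here.

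Motif matches, searched on both strands, were few. In the central 300 bases of the 58 sites at least that long, the TATA box TATAAA occurred in 10 (17.2%, against 5.93% of 43153 such windows), C/EBP TTGCNNAA in 7 (12.1%, against 12.3%), FOXA TGTTTAC in 4 (6.90%, against 4.54%), HNF1 GTTAATNAT in 1 (1.72%, against 1.21%) and HNF4 CAAAGTCCA in 0 (against 1.52%). In the 12 RefSeq promoters, TATAAA occurred in 5 (41.7%, against 13.6% of 32851 promoters), FOXA in 3 (25.0%, against 3.65%), C/EBP in 2 (16.7%, against 10.8%) and HNF1 and HNF4 in 0 (against 0.801% and 0.475%). Promoters of Apoa5 and of Apoe overlap one another in this count, so that a match can be counted more than once. A match is a description of the letters, and a window without a match says nothing of the factor.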

How the data were processed

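FAIRE-seq was performed by the authors on liver of 18 male mice, 2 for each of 9 strains. Per the study's methods, reads of the inbred strains were aligned with bowtie1 to mm9 or, for strains other than the reference, to versions of it that carry the SNPs of the strain, reads with a single location were kept, improper pairs and PCR duplicates were removed, peaks were called per library with F-seq (feature length 400 bp), and replicates were combined by the irreproducible discovery rate (IDR) framework. Reads of the recombinant strains were aligned both to mm9 and to the C3H/HeJ version, with similar results according to the study, and which of these alignments the deposited lists come from was not stated. The threshold of IDR and tool versions were not given in the sources used here. Insertions and deletions of a strain were not described as part of its genome. The deposited lists give positions and a signal value, the score of the caller. The authors also deposited 2539 variable and 2539 common sites, chosen by DESeq on quantile-normalized read counts of the inbred strains. The study lists read numbers per library, which differ between strains, and after filtering A/J had the fewest of the inbred strains. These numbers were not used here.

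The 9 lists were merged, calls required an overlap of at least 1 bp, and signal was ranked within a list as a percentile. Genes came from GENCODE M1 on NCBIM37, which is mm9, and all 10 members were found. No peak lay beyond a chromosome end. Groups follow the strain in the sample labels. Shares are set beside those of all sites, with exact Clopper-Pearson intervals (95%). The only tests were the correlations over the inbred strains, by exact permutation. Merging and calling matched a base-by-base computation in 50 of 50 simulated runs each. The members, gene lists and motifs were chosen with earlier results of these data known. Named were all promoter sites of members, the variable and common sites, the 5 sites with the largest SD among those called in 2 to 7 strains, parental differences by locus, neighbouring genes, and the 8 further lipoprotein genes with the fewest strains. Other sites described were chosen after their values were seen. Apoc1 and Apoc3 have no printed promoter. Alternatives were other windows, merging gaps, overlaps, list lengths, start sites and strains left out. Python 3.11.15, numpy 2.4.6, scipy 1.17.1 and matplotlib 3.10.9 were used.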

Additional observations from a re-analysis of the deposited data

Results flagged for a closer look

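Over the inbred strains, 34 quantities were examined for a strain far from the others by Dixon's criterion, which flags about 1 group in 20 by chance. They were sites called, covered sequence and mean percentile, by locus and over all sites, and the median percentile of sites called in all strains. The percentile of each promoter site with a peak in at least 4 of the 7 inbred strains was also included. The number of Apob sites called met the criterion, with 1 of 4 sites called in A/J against 3 in the nearest strains and 4 in DBA/2J. A single flag among 34 is no more than the chance rate would give.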

How the results depend on the processing

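No paired analysis was possible because each strain has 1 list that combines both mice, so that no replicate could be left out either. Strains were left out in its place. Requiring a peak to cover 50% of a site lowered the share of apolipoprotein sites called in all strains to 16.7% (13.2% of all sites) and the genes with such a promoter site to 3 of 10, where the merged sites are wider than the peaks of single strains. With lists of equal length, 6.90% of apolipoprotein sites were called in 1 strain (26.4% of all sites). A window of 50 kb, with 96 sites, gave 5 variable and 4 common sites. The common list kept 1 site with the top 20000 peaks, with lists of equal length and with sites nearest to a start of a member, and 1 to 2 with a strain left out, the lowest without C57BL/6J. The correlation with the length of the list was -0.07 with a window of 50 kb (exact permutation p = 0.894), and that with the median peak width was -0.61 (exact permutation p = 0.148). The cause was not tested. The former has no value for the top 20000 peaks, where all lists are equally long. The median SD between strains was 0.33 on log2 signal relative to the median of the list, a different scale. With strains left out in turn, the share called in all strains was 44.1 to 57.1% (highest without A/J), the share called in 1 strain 12.7 to 18.2%, and the genes with a promoter site in all strains 9 to 10. With promoters of 2 kb the last number was 10. Apoa2 then counted through the site over Tomm40l, while both of its own promoter sites lacked a peak in A/J. No share over all genes is given here for these settings. Other alternatives moved the shares within their intervals and the counts by at most 1.5 times. The threshold of each list limits every absent call, and how the depth of the libraries bears on absent calls was not tested.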
